A study of Homo sapiens with 6 samples.

Results

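The genes described here are 10 genes of squamous differentiation and of the cornified envelope that are neither keratins nor plakins: *IVL*, *SPRR1A*, *SPRR1B*, *SCEL*, *TGM1*, *TGM2*, *ELF3*, *GRHL3*, *SFN* and *LY6D*. They were taken by symbol from the 60649 gene rows of an RNA-seq count table of OVCAR5 cells, an established human ovarian cancer cell line. In all 3 same-numbered pairs of libraries the transglutaminase gene *TGM2* and the transcription factor gene *ELF3* had higher levels with METTL3 overexpression than with the vector, and *TGM1* had lower levels. Of the 10 genes, 2 thus kept a positive and 1 a negative difference, and the share of all genes that do so was not computed. For *IVL*, *SCEL*, *SPRR1B*, *SFN* and *LY6D* the difference was positive in replicates 2 and 3 and negative in replicate 1. For *GRHL3* the signs were the reverse. Of all genes with a value in both, 44.3% had opposite signs in replicate 1 and in replicates 2 and 3. The symbols were chosen with earlier results of these libraries known. The study itself selected *IVL* and *LY6D* on METTL3 contrasts that include at least part of these libraries. The members' differences between METTL3 and vector are therefore given as a description, with no test.

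The cornified envelope is a protein shell built under the plasma membrane of keratinocytes as stratified squamous epithelium matures. Soluble and membrane-bound precursors such as involucrin, the small proline-rich proteins and sciellin are joined by transglutaminases, which form bonds between glutamine and lysine side chains. Transcription factors of the grainyhead-like and ETS families drive the late steps of this programme. METTL3 is the catalytic subunit of the complex that writes N6-methyladenosine on mRNA.

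The cells carried either a PCDH lentiviral vector expressing METTL3 or the empty PCDH vector, both lines were selected with puromycin, and each group had 3 libraries of mRNA. No drug is named for these libraries in the labels, which call the control cells parental in one place and empty-vector cells in another, and do not say whether the libraries of a group came from separate cultures or clones. The p-values therefore measure only the spread between these samples. Total counts per library ran from 96633925 to 125463386, and even numbers made up 67.6% to 70.5% of the counts between 1 and 20, a pattern that counting both mates of a pair gives. Levels are given as CPM, counts scaled to a common library size with TMM factors. *METTL3* itself was at 152, 166 and 175 CPM with METTL3 overexpression, in the order of replicates 1, 2 and 3 used throughout, and the vector control libraries had 80.6, 68.6 and 71.6 CPM. The difference of 90.8 CPM between the group means had a two-sided exact permutation p of 0.1, the smallest that 3 against 3 allows. In edgeR's quasi-likelihood test *METTL3* had a log2 fold change of 1.16 and a Benjamini-Hochberg adjusted p of 0.072.

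Promoter windows from RefSeq (GRCh38.p14) were at hand for 7 of the 10 genes. The motif TGANTCA, the binding pattern of AP-1, a factor known for driving involucrin and *SPRR* genes in keratinocytes, stood within 250 bases upstream of the start in 5 of these 7 genes (*IVL*, *SPRR1A*, *SPRR1B*, *SCEL* and *SFN*) and in 6.57% of 35116 windows of all genes. The pattern reads the same on both strands. The 150 bases before the annotated start of the 4 envelope precursor genes are shown, each 5′ to 3′ on the plus strand, with the AP-1 matches in capitals, because these genes had the widest spread between libraries (3.49-fold to 9.16-fold from lowest to highest). They lie at chr1:152908396-152908545 (*IVL*), chr1:152983931-152984080 (*SPRR1A*), chr1:153031053-153031202 (*SPRR1B*) and chr13:77535524-77535673 (*SCEL*).
IVL: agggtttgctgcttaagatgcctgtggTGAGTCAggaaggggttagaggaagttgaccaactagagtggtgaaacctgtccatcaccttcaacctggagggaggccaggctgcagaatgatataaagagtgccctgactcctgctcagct
SPRR1A: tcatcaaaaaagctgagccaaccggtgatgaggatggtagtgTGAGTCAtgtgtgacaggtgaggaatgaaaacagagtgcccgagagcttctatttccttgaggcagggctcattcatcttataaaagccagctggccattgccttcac
SPRR1B: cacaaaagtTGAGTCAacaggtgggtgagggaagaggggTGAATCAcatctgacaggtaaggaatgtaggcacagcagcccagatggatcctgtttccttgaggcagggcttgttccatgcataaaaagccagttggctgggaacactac
SCEL: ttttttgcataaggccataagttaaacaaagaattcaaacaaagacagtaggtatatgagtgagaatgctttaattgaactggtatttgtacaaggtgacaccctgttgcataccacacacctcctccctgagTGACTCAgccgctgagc
*SPRR1B* held a pair of AP-1 matches and the others 1 each. The grainyhead-like pattern AACNGGTT, searched on both strands and found in 1.49% of all windows, was in none of the 7 genes' windows. TATAAA, also searched on both strands and found in 10.7%, was in those of *IVL*, *SPRR1A* and *ELF3*. No matches of different motifs overlapped. A match is only a run of letters in this window and says nothing of a factor's binding in these cells.

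The 10 genes covered a wide range of levels. Per kilobase of merged exon, *TGM2* was highest with a mean of 262 CPM per kb over the 6 libraries, followed by *SFN* at 103, *ELF3* at 21.3, *SCEL* at 18.4 and *LY6D* at 11.2. The remaining 5 were under 1 CPM per kb, at 0.632 for *IVL*, 0.479 for *SPRR1B*, 0.356 for *TGM1*, 0.241 for *GRHL3* and 0.185 for *SPRR1A*. On this scale the library ranges of *SCEL* (8.66 to 30.2 CPM per kb) and *ELF3* (17.9 to 26.3) overlapped, as did those of *SCEL* and *LY6D* (5.72 to 17.9) and of all neighbouring genes among the lowest 5, whereas *TGM2* (172 to 361) and *SFN* (93.2 to 111) stood clear of each other and of the rest. By mean CPM, *TGM2* ranked 17 among all genes. Thus OVCAR5 cells held abundant *TGM2* and *SFN* mRNA and little mRNA of the envelope precursor genes *IVL*, *SPRR1A* and *SPRR1B*. The level of *SCEL*, also a precursor gene, was well above theirs. *SPRR1A*, with 8 to 34 counts a library, did not pass the filter on low counts, and the other 9 genes did.

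**Figure D1:**
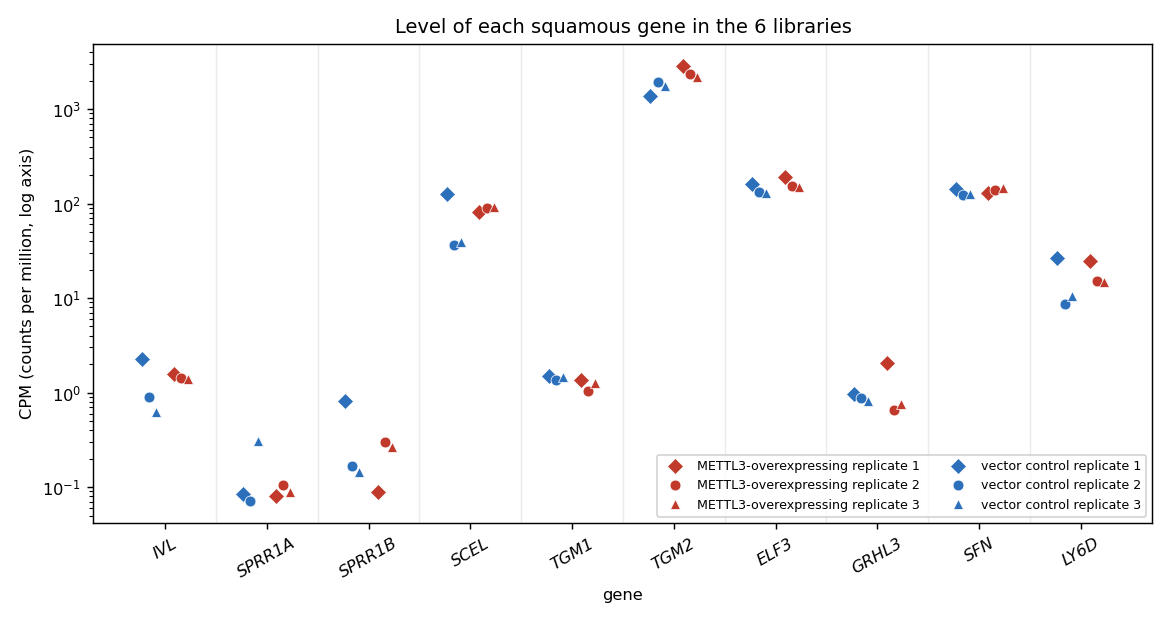
Level of each of the 10 squamous genes in CPM (log axis) in the 3 METTL3-overexpressing (red) and 3 vector control (blue) libraries, with diamonds for replicate 1, circles for replicate 2 and triangles for replicate 3. Vector control replicate 1 is the highest of the 6 libraries for IVL, SPRR1B, SCEL, TGM1 and LY6D.

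The envelope precursors varied most between the vector control libraries. *IVL* (chromosome 1, 152908546 to 152911886, plus strand) encodes involucrin, an early scaffold of the envelope. Its level was 1.59, 1.42 and 1.39 CPM with METTL3 and 2.26, 0.894 and 0.615 CPM with the vector. All 3 METTL3 libraries therefore lay between the first vector control library and the other two, and the groups overlapped. Over all 6 libraries the log2 difference was 0.23 (SE 0.43), and in replicates 2 and 3 alone it was 0.89 (SE 0.23), whereas replicate 1 gave -0.51. These values rest on 68 to 214 counts a library.

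*SCEL* (chromosome 13, 77535674 to 77645263, plus strand) encodes sciellin, a precursor that is linked to the envelope. It was at 81.0, 89.4 and 92.3 CPM with METTL3 and at 127, 36.4 and 39.1 CPM with the vector, again with the METTL3 libraries between the first vector control library and the others. The log2 difference was 1.27 (SE 0.06) in replicates 2 and 3, -0.65 in replicate 1 and 0.38 (SE 0.43) over all 6 libraries. Here the counts were 4113 to 12046 a library, so counting error was small beside the gap between vector control libraries. Exons of genes on the opposite strand overlap 5.35% of the exonic bases of *SCEL*, and the sources used here do not state whether counting used strand.

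*SPRR1A* (chromosome 1, 152984081 to 152985814) and *SPRR1B* (chromosome 1, 153031203 to 153032900), both on the plus strand, encode small proline-rich proteins that bridge other envelope proteins. They are close paralogs in the epidermal differentiation complex, so how reads were divided between them is uncertain. *SPRR1B* was at 0.0886, 0.299 and 0.268 CPM with METTL3 and at 0.812, 0.168 and 0.145 CPM with the vector, from 10, 37, 27, 77, 19 and 16 counts in that order. Its highest and lowest libraries, which differed 9.16-fold, were the replicate 1 libraries of the vector and METTL3 groups. The log2 difference was -0.76 (SE 0.73) over all 6 libraries, 0.85 (SE 0.45) in replicates 2 and 3 and -3.20 in replicate 1. *SPRR1A* was at 0.0798, 0.105 and 0.0892 CPM with METTL3 and at 0.0843, 0.0708 and 0.308 CPM with the vector. In contrast to *SPRR1B*, its single high library was vector control replicate 3, with 34 counts.

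The crosslinking enzymes differed from each other in level and direction. *TGM2* (chromosome 20, 38127385 to 38166578, minus strand) encodes tissue transglutaminase, a widely expressed enzyme that is not restricted to squamous cells. It was at 2868, 2363 and 2179 CPM with METTL3 and at 1368, 1933 and 1769 CPM with the vector, so that every METTL3 library was above every vector control library. The METTL3 group had a mean of 2470 ± 357 CPM (SD, n = 3), 1.46 times the vector control mean of 1690 ± 291 CPM (SD, n = 3). Within same-numbered libraries the log2 difference was 1.07, 0.29 and 0.30, and over all 6 it was 0.55 (SE 0.17), the only one of the 9 tested members to exceed 2 SE. The share of all genes past 2 SE was not computed. The opposite-strand gene *RPRD1B* overlaps 4.98% of the exonic bases of *TGM2*.

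*TGM1* (chromosome 14, 24249114 to 24264432, minus strand) encodes the membrane-bound transglutaminase of keratinocytes that builds the envelope. With METTL3 it was at 1.36, 1.05 and 1.25 CPM, and with the vector at 1.51, 1.36 and 1.45 CPM, so the groups did not overlap, with the vector control higher. The lowest vector control library (154 counts) and the highest METTL3 library (153 counts) were nearly equal, however, and the log2 difference of -0.24 had an SE of 0.20.

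Among the transcription factor genes, *ELF3* (chromosome 1, 202007945 to 202017183, plus strand), which encodes an epithelial ETS factor that activates *SPRR* genes, was at 189, 153 and 150 CPM with METTL3 and at 162, 133 and 129 CPM with the vector. The groups overlapped because replicate 1 was the highest library of each. Within same-numbered libraries the log2 difference was 0.23, 0.20 and 0.22, the narrowest range of any member. Over all 6 libraries it was 0.22 (SE 0.14). *ELF3-AS1* on the opposite strand overlaps 9.24% of its exonic bases.

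*GRHL3* (chromosome 1, 24199558 to 24364482, plus strand) encodes the grainyhead-like factor that activates *TGM1* in the epidermis. It was at 2.07, 0.654 and 0.763 CPM with METTL3 and at 0.970, 0.885 and 0.815 CPM with the vector. METTL3-overexpressing replicate 1 stood alone at the top, and both other METTL3 libraries were the lowest of the 6. The log2 difference was 1.10 in replicate 1 and -0.27 (SE 0.24) in replicates 2 and 3.

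*SFN* (chromosome 1, 26863149 to 26864456, plus strand) encodes stratifin, the 14-3-3 protein of stratified epithelia that is also a p53 target. It was the steadiest member, with a ratio of 1.19 between its highest and lowest libraries. Its levels were 130, 140 and 145 CPM with METTL3 and 144, 122 and 125 CPM with the vector. The log2 difference was 0.09 (SE 0.12) over all 6 libraries and 0.20 (SE 0.05) in replicates 2 and 3.

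*LY6D* (chromosome 8, 142784882 to 142786539, minus strand) encodes a GPI-anchored surface protein of stratified epithelia. It was at 24.7, 15.0 and 14.8 CPM with METTL3 and at 26.8, 8.57 and 10.5 CPM with the vector. Both replicate 1 libraries were the highest, at 1.66 times the mean of the other METTL3 libraries and 2.81 times the mean of the other vector control libraries. The log2 difference was 0.25 (SE 0.42) over all 6 libraries, 0.64 (SE 0.10) in replicates 2 and 3 and -0.12 in replicate 1. A gene on the opposite strand overlaps 14.4% of its exonic bases.

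Across all 6 libraries none of the 9 tested members, and none of the 22038 genes tested (0.0%), had an adjusted p under 0.05 in edgeR's quasi-likelihood test. At an unadjusted p under 0.05 there were 1830 of the 22038 genes and 1 of the 9 members, *TGM2*. DESeq2 called 213 of 19701 genes (1.08%) and no member, and edgeR without the filter on low counts called 560 of 43096 genes (1.3%), *TGM2* included. The log2 difference by edgeR was above 0 for 7 of the 9 members and for 10415 of the 22038 genes tested. The median was 0.23 for the members and -0.02 over all genes tested. For 5 of them (*IVL*, *LY6D*, *SFN*, *SCEL* and *GRHL3*) it was smaller than its SE. The groups did not overlap for 2 of 9 members, *TGM2* and *TGM1*, and for 17.4% of all genes tested.

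The value for most members turned on replicate 1. With replicates 2 and 3 alone, 6 of the 10 members had an adjusted p under 0.05 by edgeR, all of them higher with METTL3 (*ELF3*, *IVL*, *LY6D*, *SCEL*, *SFN* and *TGM2*), where 15.2% of 22046 genes were called and 6.66% were called higher. Because the members were selected with such results known, these counts describe the libraries and are not a test. The study printed log2 fold changes of 1.29 for *METTL3*, 0.90 for *IVL* and 0.65 for *LY6D*. DESeq2 gave 1.29, 0.90 and 0.65 on replicates 2 and 3, and 1.18, 0.26 and 0.27 on all 6 libraries. The paper does not state which replicates it used. Leaving out vector control replicate 1 alone gave 1 member called, *SCEL*, and 1.62% of 22627 genes. The sign of the METTL3 difference in replicate 1 was opposite to that in replicates 2 and 3 for 6 of 9 members (*IVL*, *LY6D*, *SFN*, *SPRR1B*, *SCEL* and *GRHL3*), compared with 44.3% of genes with a value in both. The same genes can be seen in the plot of log2 differences, where the replicate 1 value lies across the zero line from that of replicates 2 and 3.

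**Figure D2:**
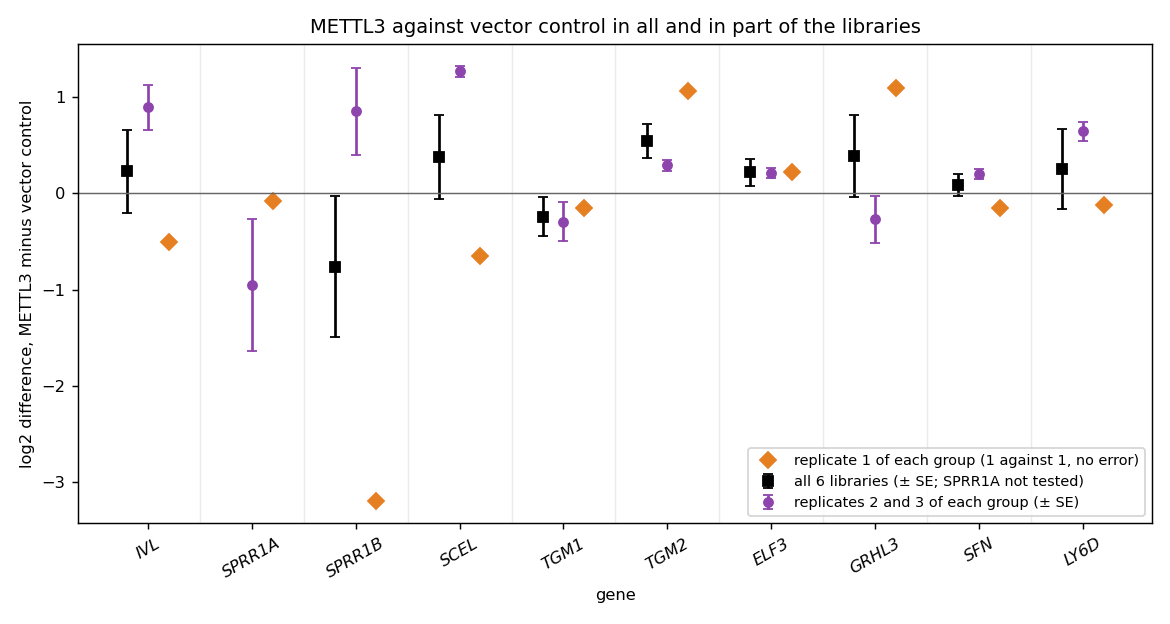
Log2 difference between METTL3-overexpressing and vector control libraries for the 10 genes, over all 6 libraries (black squares, ± SE), in replicates 2 and 3 of each group (purple circles, ± SE) and between the replicate 1 libraries (orange diamonds, 1 against 1, no error). ELF3 has nearly the same value in all 3, whereas SPRR1B goes from 0.85 in replicates 2 and 3 to -3.20 in replicate 1.

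The replicate 1 libraries were then compared with replicates 2 and 3, with the METTL3 group in the model. This is another contrast than METTL3 against vector, but the members were chosen with earlier results of these libraries known. *LY6D* was higher in replicate 1, by 1.12 on the log2 scale (SE 0.18), with an edgeR adjusted p of 0.0127. It was the 1 member called of 9, where 9.06% of all genes tested were called. *ELF3* (0.31, SE 0.08, edgeR adjusted p = 0.0618), *GRHL3* (0.93, SE 0.31, edgeR adjusted p = 0.102), *IVL* (0.91, SE 0.32, edgeR adjusted p = 0.123) and *SCEL* (0.90, SE 0.37, edgeR adjusted p = 0.167) did not pass. The members' median was 0.84, against 0.04 over all genes tested.

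Leaving out METTL3-overexpressing replicate 2 or vector control replicate 3 removed the call for *LY6D*, where 264 of 22907 and 233 of 22886 genes were called. Without METTL3-overexpressing replicate 1 the contrast rests on 1 replicate 1 library. Its log2 difference was then 2.32 for *SPRR1B*, 1.71 for *SCEL*, 1.54 for *IVL*, 1.45 for *LY6D* and -0.48 for *TGM2*. For *TGM1*, *GRHL3*, *SFN* and *ELF3* it lay between 0.06 and 0.26. The difference between replicate 1 and the others was of unlike size in the groups. In the vector control group *SPRR1B* was 5.19 times, *SCEL* 3.37 times and *IVL* 2.99 times as high in replicate 1 as in the mean of replicates 2 and 3, while in the METTL3 group these ratios were 0.313, 0.892 and 1.13. *GRHL3* had the reverse pattern, with 2.93 in the METTL3 group and 1.14 in the vector group. Vector control replicate 1 was the highest of all 6 libraries for 5 of 9 tested members (*IVL*, *LY6D*, *TGM1*, *SPRR1B* and *SCEL*), as for 30.1% of all genes tested, and both replicate 1 libraries were above the other 4 for 4 of 9 (*IVL*, *LY6D*, *GRHL3* and *ELF3*), as for 17.0%.

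**Figure D3:**
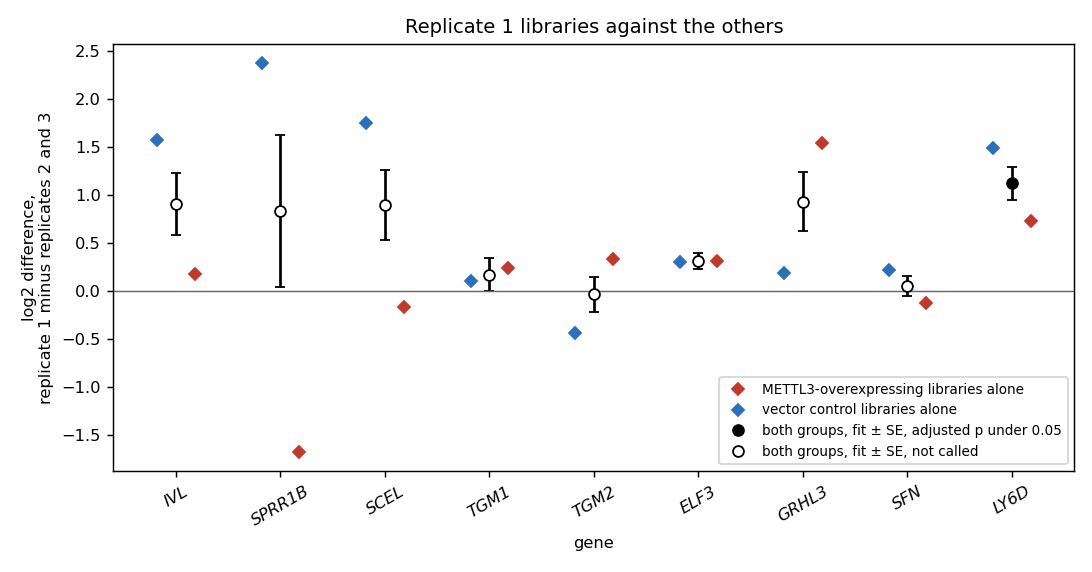
Log2 difference between replicate 1 and replicates 2 and 3 for the 9 tested genes, from the fit over both groups (circles, ± SE, filled where the edgeR adjusted p is under 0.05) and for each group alone (diamonds, log2 of the replicate 1 CPM over the mean of the other libraries, red for METTL3 and blue for the vector). LY6D is the 1 filled circle, and the group values lie farthest apart for SPRR1B.

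The rest of the cornified envelope genes were mostly silent. Of 48 further envelope genes, 14 were at 0 in every library, 5 had a mean of at least 1 CPM and 12 were tested. None was called over all 6 libraries by edgeR or DESeq2 and 0 had an unadjusted edgeR p under 0.05, and 5 lay above 0 and 7 below. In replicates 2 and 3 alone, 2 of 12 were called, near the 15.2% of all genes. *CYSRT1*, a cysteine-rich envelope protein gene that the study had also selected on METTL3 contrasts, was higher, by 0.87 (SE 0.09), at 13.7, 12.96 and 14.1 CPM with METTL3 and 17.9, 6.93 and 7.87 CPM with the vector. *CNFN*, the gene of cornifelin, fell by 0.62 on the log2 scale in replicates 2 and 3 but had a positive difference of 0.48 in replicate 1. The most abundant of the list was *DMKN*, a secreted epidermal protein gene, at 92.2 to 145 CPM. *PI3*, whose product elafin is a protease inhibitor linked into the envelope, was at 15.2 to 26.1 CPM and *HRNR*, a filaggrin-like gene, at 1.46 to 5.00 CPM. Of the 43 listed genes within the epidermal differentiation complex (chromosome 1, 152084141 to 153262124), members included, 7 were tested and 2 had a mean of at least 1 CPM.

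Of 18 barrier lipid and desquamation genes, 12 were tested, with no call by edgeR over all 6 libraries, where 2 had an unadjusted p under 0.05 and DESeq2 called *STS*. In replicates 2 and 3, 4 of the 12 were called, beside 15.2% of all genes. *STS*, the steroid sulfatase gene whose loss causes X-linked ichthyosis, rose by 1.02 (SE 0.07, edgeR adjusted p = 5.38e-07) in replicates 2 and 3, and it was at 438, 265 and 233 CPM with METTL3 and 221, 128 and 118 CPM with the vector, with no overlap. *ABHD5*, a lipase cofactor gene, rose by 0.24 on the log2 scale in the same libraries. *SMPD1*, the acid sphingomyelinase gene, fell by 0.51 and *ALOXE3*, a lipoxygenase gene of the lipid barrier, fell by 0.74 there. In replicate 1 the difference had the opposite sign for *ABHD5* (-0.33) and *SMPD1* (0.42) and the same sign for *ALOXE3* (-0.76). The other abundant genes of the list described here, *UGCG* and *BLMH*, had log2 differences of -0.02 and -0.03 in replicates 2 and 3.

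Regulators of squamous differentiation other than *ELF3* and *GRHL3* had mostly positive differences. In all 3 same-numbered pairs 13 of 23 tested regulators had a positive difference and 1 a negative one. The same share over all genes was not computed, so these counts are a description. Of 26 listed, these 23 passed the filter over all 6 libraries, where edgeR and DESeq2 called none, 10 had an unadjusted edgeR p under 0.05, 18 lay above 0 and the median was 0.38. Of all 22038 genes tested, 1830 had an unadjusted edgeR p under 0.05, 10415 lay above 0 and the median was -0.02. In replicates 2 and 3, 10 of 22 were called, 8 higher and 2 lower, beside the 15.2% of all genes given above. The most abundant that rose there were *EHF*, an epithelial ETS factor gene (0.60, SE 0.06), *KLF5* (0.24, SE 0.06), *GRHL2* (0.81, SE 0.06) and *KLF4* (0.23, SE 0.06), the last pair encoding a grainyhead-like factor and a Krüppel-like factor needed for the skin barrier. *EHF* was at 654, 556 and 511 CPM with METTL3 and at 552, 358 and 344 CPM with the vector. *GRHL2* was at 64.2, 54.0 and 51.1 CPM with METTL3 and at 46.2, 31.2 and 28.5 CPM with the vector, so its groups did not overlap, whereas those of *EHF* did. All 8 regulators called higher also had a positive difference in replicate 1, among them *OVOL1*, *OVOL2* and *SOX7*, which were named after their values were seen. In replicate 1, however, 21 of the 23 tested regulators had a positive difference, the 2 called lower included. The share of all genes with a positive difference in replicate 1 was not computed. *RORA* (-0.70, SE 0.15), also named after its values were seen, fell in replicates 2 and 3 and had a positive difference in replicate 1. *CEBPB*, at 92.5 to 151 CPM, had a log2 difference of 0.03 in replicates 2 and 3. Against replicates 2 and 3, replicate 1 was higher for 5 of 23 regulators (*EHF*, *ELF5*, *GRHL1*, *GRHL2* and *OVOL1*) and lower for none, at 9.06% of all genes.

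**Figure D4:**
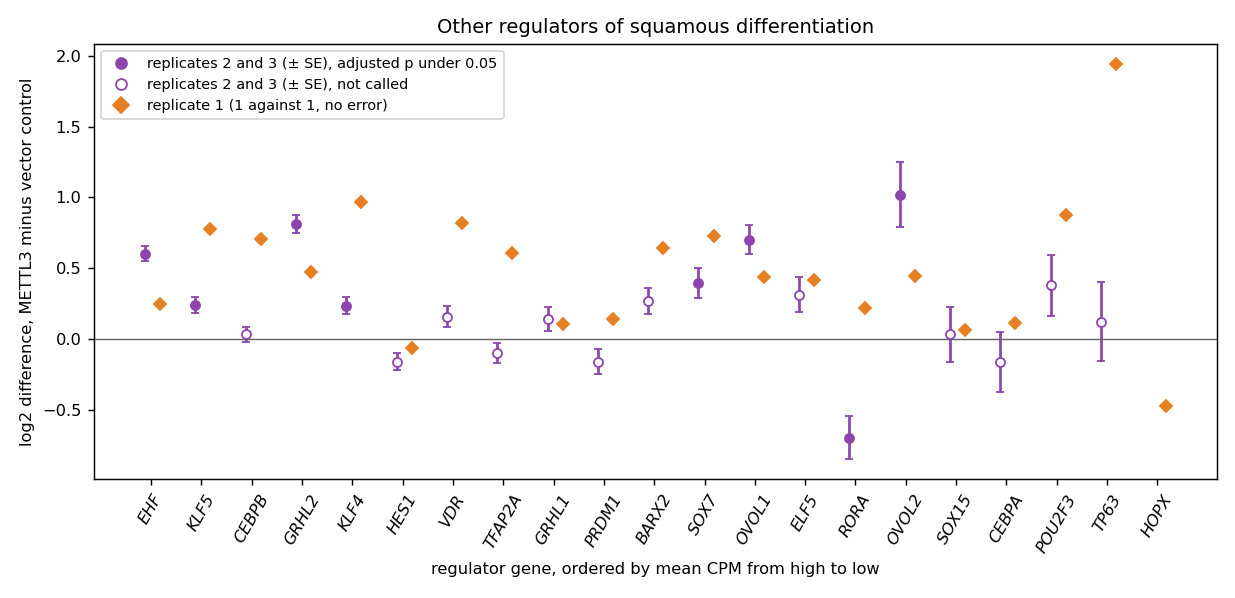
Log2 difference between METTL3-overexpressing and vector control libraries for 21 of the 23 tested regulators, ordered by mean CPM, in replicates 2 and 3 (purple, ± SE, filled where the edgeR adjusted p is under 0.05) and between the replicate 1 libraries (orange diamonds, 1 against 1). In replicate 1, 19 of the 21 lie above 0, and HOPX has no value in replicates 2 and 3.

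Relatives of the members were compared in the same way. Of 7 further transglutaminase family genes, 3 were tested and none reached a mean of 1 CPM. *F13A1*, which encodes the catalytic chain of coagulation factor XIII, was at 0.0595 to 0.106 CPM with METTL3 and 0.199 to 0.407 CPM with the vector and was called lower in replicates 2 and 3 (-2.08, SE 0.57). *TGM2* was thus the 1 transglutaminase gene with abundant mRNA, and *TGM3*, the other enzyme known for envelope assembly, was at 0 in 5 libraries. In the LY6 and PLAUR family 4 of 13 tested genes were called in replicates 2 and 3, beside 15.2% of all genes. *LYPD2* rose by 1.65 (SE 0.12) and *PSCA*, a GPI-anchored surface antigen gene, by 0.59 (SE 0.06), while the complement inhibitor gene *CD59* fell by 0.33 and *LYPD6B* by 0.30 on the log2 scale. *LYPD2* resembled *LY6D* in replicate 1, at 19.2, 7.41 and 7.13 CPM with METTL3 and 6.15, 2.25 and 2.38 CPM with the vector, but its groups did not overlap and its METTL3 difference had the same sign in every same-numbered pair. *LY6E*, the most abundant gene of the family, and *PLAUR* were not called there, with log2 differences of -0.06 and -0.04. Of the other 6 14-3-3 genes, the group to which *SFN* belongs, 2 were called in replicates 2 and 3, beside 15.2% of all genes. *YWHAH* was higher (0.25, SE 0.05) and *YWHAQ* lower (-0.16, SE 0.05). *YWHAZ*, *YWHAE*, *YWHAB* and *YWHAG* had log2 differences between -0.07 and -0.01 there. In replicate 1 the difference had the opposite sign for *YWHAH* (-0.17) and the same sign for *YWHAQ* (-0.47).

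The markers of cell type were read beside these genes. The 5 simple epithelium markers were all abundant, with *KRT8* at 3131 to 5153 CPM, *KRT18* at 1475 to 2094, *KRT19* at 488 to 902, *EPCAM* at 247 to 483 and *CDH1* at 184 to 439 CPM. All 5 were called higher with METTL3 in replicates 2 and 3, where 6.66% of all genes were called higher. Over all 6 libraries edgeR called none of them, and 1 had an unadjusted p under 0.05. In replicate 1, *KRT8*, *KRT18*, *KRT19* and *EPCAM* had log2 differences of -0.23, -0.22, -0.09 and -0.14, so these 4 changed sign as *IVL*, *SCEL*, *SFN* and *LY6D* did. *CDH1* did not, at 1.13. Whether a change in epithelial state has a part in the members' values was not tested. Of 9 stratified squamous markers *LORICRIN* was at 0 in every library, *KRT1* and *KRT14* were at most at 0.0422 CPM, *KRT5* and *FLG* at most at 0.287 CPM and *TP63* at 0.327 to 1.26 CPM. The defining keratins of the basal layer, *KRT5* and *KRT14*, were thus nearly absent, whereas *KRT10* was at 28.1 to 32.9 CPM and *KRT4* at 0.606 to 2.91 CPM. *KRT13* was at 3.84, 4.45 and 5.38 CPM with METTL3 and at 8.90, 2.73 and 2.05 CPM with the vector. The study had selected *KRT13*, as it had *IVL*, on METTL3 contrasts, so their similar order of libraries is not independent.

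Most markers of cells other than epithelium were low. *COL1A2*, *DCN*, *PTPRC* and *CD3E* were at most at 0.0708 CPM, *COL3A1* and *LUM* at most at 0.290 CPM, and *VWF*, *CDH5* and *TEK* at most at 0.443 CPM. Single genes of these lists were higher, namely *COL1A1* at 8.04 to 18.1 CPM, *PDGFRB* at 0.771 to 2.76, *LYZ* at 28.1 to 57.0, *CD14* at 7.02 to 11.4 and *PECAM1* at 4.67 to 21.4 CPM. In replicates 2 and 3, where 6 members were called, *LYZ* was called lower with METTL3 (-0.92, SE 0.06) and *PECAM1* higher (0.69, SE 0.13), both also selected by the study on METTL3 contrasts. That was 1 of 2 tested leukocyte markers and 1 of 3 tested endothelial markers, and 0 of 3 tested fibroblast markers were called, beside 15.2% of all genes. The summed level of the leukocyte markers was 35.9 to 47.8 CPM with METTL3 and 44.5 to 64.1 CPM with the vector, that of the endothelial markers 8.02 to 22.2 and 5.21 to 8.19 CPM, and that of the fibroblast markers 17.5 to 20.1 and 9.15 to 20.3 CPM. The part of these markers in the members' values was not tested. A lower share of cells with a transcript and less transcript per cell cannot be told apart in these bulk libraries.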

How the data were processed

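mRNA of 3 METTL3-overexpressing and 3 vector control OVCAR5 libraries was sequenced. Per the labels, fastp, HISAT2 and featureCounts of Subread were used with GRCh38. The counts deposited by the authors are whole numbers per gene, without normalization. Versions and the strand setting are not given in the sources used here, and the labels give stranded paired-end libraries, whereas single-end reads and another kit stand in the paper's methods. GENCODE release 44 named 60463 of 60649 rows.

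In R 4.3.3, genes passing filterByExpr were scaled by TMM and compared with the quasi-likelihood test of edgeR 4.0.16 (robust, Benjamini-Hochberg threshold 0.05), each fit covering the whole table. DESeq2 1.42.0 was an alternative. SE was the size of the log2 difference over the square root of F. The fits were tested on simulated counts. Replicate 1 was compared with replicates 2 and 3 with the group as covariate. The replicate numbers are shared between groups, and the deviations of same-numbered libraries correlated at 0.33, 0.12 and 0.17, each over 0.1. Libraries of one number were therefore set side by side as pairs. Between replicates 2 and 3, however, libraries of different numbers also reached 0.13 and 0.21. These correlations do not settle which libraries of replicates 2 and 3 belong together. The fits of METTL3 against vector had no term for the replicate number, apart from the alternative with a replicate block. Sequences came from RefSeq windows, and overlaps on the opposite strand from GENCODE.

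The members, gene lists and alternatives were chosen with earlier results of these data known. Beside the members and *METTL3*, the rule named up to 5 genes of each list with the highest mean CPM, up to 4 of its called genes, and every marker. Some genes of the lists are not reported here, though they stay in the counts. Other libraries of the study were not analysed here.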

Additional observations from a re-analysis of the deposited data

Results flagged for a closer look

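The difference between METTL3-overexpressing and vector control libraries was set side by side in replicate 1 and in replicates 2 and 3 by an interaction term, and 7 of the 9 tested members were past the edgeR threshold for it, where 30.2% of all genes were. The members were chosen with METTL3 differences of these libraries known, and such differences enter the term, above all for *IVL* and *LY6D*, which the study selected. The values are therefore a description, with no test. The METTL3 difference in replicate 1 minus that in replicates 2 and 3 was, on the log2 scale, -1.40 for *IVL*, -0.77 for *LY6D*, -0.35 for *SFN*, -4.03 for *SPRR1B* and -1.92 for *SCEL*. It was positive for *TGM2*, at 0.77, and for *GRHL3*, at 1.36. *TGM1* (0.14) and *ELF3* (0.01) were not past the threshold. Each value rests on 1 library per group in replicate 1, whose spread is assumed to equal that between replicates 2 and 3. The cause was not tested.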

How the results depend on the processing

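The members' differences between METTL3 and vector were recomputed in 153 settings and results, of which 114 kept sign and side of the threshold, 26 passed it newly and 13 changed sign. With 1 library left out, *IVL* ran from -0.064 (without vector control replicate 3) to 0.96, *LY6D* from -0.0052 (without METTL3 replicate 1; -0.00081 without vector control replicate 2) to 0.93, *SPRR1B* from -1.11 to 0.48 (without vector control replicate 1) and *GRHL3* from -0.31 (without METTL3 replicate 1) to 0.70. In replicates 2 and 3 *SPRR1B* turned to 0.85, 0.86, 0.86 and 0.84 and *GRHL3* to -0.27, -0.26, -0.26 and -0.28 by edgeR with TMM, DESeq2, edgeR with RLE and edgeR with upper-quartile scaling, the last 3 added after seeing the data. The cause was not tested.

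Members called rose from 0 to 1 without the filter and to 6 in each of the 4 fits of replicates 2 and 3, and were 0 to 1 with 1 library left out. All genes called were 0 with edgeR on 6 libraries, 560 without the filter, 213 with DESeq2, 0 to 367 with 1 library left out, and 3362, 3063, 3290 and 3303 in those 4 fits. Of the other list genes, 6 were called without the filter, 2 with DESeq2, 23 in replicates 2 and 3, and 0 to 5 with 1 library left out. *METTL3* had log2 fold changes of 1.18 without the filter, 1.18 with DESeq2, 1.13 to 1.23 with 1 library left out, and 1.28, 1.29, 1.29 and 1.27 in those 4 fits, past the threshold in each but those leaving out a library other than vector control replicate 1. With the replicate block, 0 genes and 0 members were called and no call changed.

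For replicate 1 against replicates 2 and 3, 86 of 108 values kept sign and side. Members called were 4 without the filter, 2 with DESeq2, 2 with upper-quartile scaling and 0 to 7 with 1 library left out. All genes called were 4220 without the filter, 3150 with DESeq2 and 233 to 9028 with 1 library left out. With 1 library left out, *SFN* ran from -0.13 (without vector control replicate 1; -0.0088 without replicate 2) to 0.18, *TGM2* from -0.48 to 0.33 (without vector control replicate 1; 0.017 without replicate 2), *SPRR1B* from -1.67 to 2.32 and *SCEL* from -0.17 to 1.71, both lowest without vector control replicate 1. *TGM2* turned to 0.022 with upper-quartile scaling. Depth limits *SPRR1A* and *SPRR1B*, at 8 to 77 counts.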

Other observations

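GGACT, the commonest form of the motif at which N6-methyladenosine is found, was counted in each member's longest transcript in GENCODE. *ELF3* held 13 copies (2.60 per kb) and *SFN* 3 (2.29 per kb), while *SPRR1A* and *SPRR1B* held 0. The other members were at 1.405 (*LY6D*), 1.09 (*TGM1*), 0.929 (*IVL*), 0.805 (*TGM2*), 0.706 (*GRHL3*) and 0.626 (*SCEL*) copies per kb. The median over 14873 genes was 0.938 per kb, with 0.586 and 1.37 as quartiles, and 6.20% of genes held none. No methylation was measured in these libraries.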
